A study of Mus musculus with 4 samples.

Results

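Sterol synthesis, lipogenesis and sterol transport genes were described in primary keratinocytes of the mouse epidermis, which form the outer layer of skin. The 35 genes were chosen by name from these pathways, with earlier results of these data known. They are 7 enzymes from acetyl-CoA to farnesyl diphosphate, 11 enzymes from squalene to cholesterol, 5 genes of the SREBP control system, 5 enzymes of fatty acid synthesis and desaturation, and 7 genes of sterol transport and the liver X receptor (LXR). All 35 were among the 13102 genes with deposited counts. All 35 also had a mean of at least 1 CPM (counts relative to the scaled library size), so no gene of the set was lost to the filter that left 12934 genes.

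The series holds 4 RNA-seq libraries with 1 library in each group. Cells came from neonatal C57BL/6 mice and grew for 48 h in 154CF medium with the HKGS supplement. The groups were Il17rc knockout (KO) cells with interleukin-17A (IL-17A), Il17rd KO cells with IL-17A, wild-type (WT) cells with IL-17A, and untreated WT cells. IL-17A, a cytokine that drives inflammation in skin, was given at 100 ng/mL for 8 h. Both deleted genes encode receptors of the IL-17 family. The number and sex of the mice behind each library, and the part of each gene that was deleted, were not given in the sources used here. Knockout cells without IL-17A were not analysed here, so a difference in level between genotypes and a difference in the response to IL-17A cannot be told apart.

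Cells make cholesterol from acetyl-CoA through the mevalonate pathway and then through squalene and lanosterol. The transcription factors SREBP-1 and SREBP-2, encoded by Srebf1 and Srebf2, turn on these enzymes and those of fatty acid synthesis after the escort protein SCAP carries them from the endoplasmic reticulum, and the INSIG proteins hold SCAP back when sterols are plentiful. LXR acts in the other direction: it senses oxysterols and turns on exporters such as ABCA1 and ABCG1 and the ubiquitin ligase encoded by Mylip. Keratinocytes rely on this synthesis for the cholesterol and fatty acids of the epidermal barrier.

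With no replicates there is no test and no p-value, and each difference describes 2 libraries and not the conditions. A gene is called higher or lower where the log2 ratio of its TMM-scaled counts (prior count 2) was at least 2-fold and its exact 95% counting interval excluded 1. That interval, given in parentheses after a ratio, covers counting error only, and sequencing reads are not independent molecules. Shares of all genes are over the 12934 genes that passed the filter, called by the same rule.

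Total counts were between 19711866 and 19904695 per library. As a check of the labels, Il17rd had 150, 5, 265 and 252 counts in IL-17A Il17rc KO, IL-17A Il17rd KO, IL-17A WT and untreated WT. Il17rc had 439, 1718, 1152 and 2729 counts in the same libraries, so its transcript was still counted in the library labelled Il17rc KO. The basal keratins Krt5 and Krt14 were at 9990 CPM or more in every library. Sex-linked transcripts differed between the libraries: Ddx3y, on the Y chromosome, had 749, 2, 233 and 654 counts, and Xist had 2668, 8513, 4750 and 2420 counts. Marker lists of other cell states differed too and are given beside the results. In such bulk samples fewer cells of a type and less RNA per cell cannot be told apart.

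Promoters of 5 genes are printed. Hmgcs1 and Nsdhl were taken because they match the letters searched for as similar to a sterol response element (SRE), the site of the SREBPs. Idi1 and Dhcr7 were taken because these sterol enzymes differed most between IL-17A WT and untreated WT, and the exporter Abca1 because it took the opposite direction. Each is the RefSeq promoter (GRCm38.p6) from 250 bases before to 50 bases after the transcript start, 5' to 3' on the gene's strand. Capitals mark the SRE-like letters TCACNCCAC or the looser TCACNCNAC, the CCAAT box (CCAAT) and the GC box (GGGCGG), read on either strand.
Hmgcs1, chr13:119690101-119690400, plus strand: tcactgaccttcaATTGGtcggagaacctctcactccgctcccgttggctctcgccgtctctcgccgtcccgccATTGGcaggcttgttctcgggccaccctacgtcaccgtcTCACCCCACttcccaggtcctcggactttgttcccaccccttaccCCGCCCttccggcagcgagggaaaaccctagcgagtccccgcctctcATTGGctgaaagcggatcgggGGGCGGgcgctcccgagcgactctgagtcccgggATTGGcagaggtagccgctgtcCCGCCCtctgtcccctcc
Idi1, chr13:8885356-8885655, plus strand: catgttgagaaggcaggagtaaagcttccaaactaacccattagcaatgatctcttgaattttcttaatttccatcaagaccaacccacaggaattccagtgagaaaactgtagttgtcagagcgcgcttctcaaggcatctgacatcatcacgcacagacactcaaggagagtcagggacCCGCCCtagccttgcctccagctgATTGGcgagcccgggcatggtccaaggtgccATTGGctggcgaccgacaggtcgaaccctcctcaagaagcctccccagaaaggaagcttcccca
Nsdhl, chrX:72918271-72918570, plus strand: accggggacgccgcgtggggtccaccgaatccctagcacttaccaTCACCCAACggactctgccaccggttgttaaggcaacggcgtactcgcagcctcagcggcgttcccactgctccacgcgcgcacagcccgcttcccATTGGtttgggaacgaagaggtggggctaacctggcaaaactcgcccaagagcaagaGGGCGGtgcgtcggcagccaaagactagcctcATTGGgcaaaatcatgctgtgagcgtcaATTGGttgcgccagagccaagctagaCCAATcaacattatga
Dhcr7, chr7:143829964-143830263, plus strand: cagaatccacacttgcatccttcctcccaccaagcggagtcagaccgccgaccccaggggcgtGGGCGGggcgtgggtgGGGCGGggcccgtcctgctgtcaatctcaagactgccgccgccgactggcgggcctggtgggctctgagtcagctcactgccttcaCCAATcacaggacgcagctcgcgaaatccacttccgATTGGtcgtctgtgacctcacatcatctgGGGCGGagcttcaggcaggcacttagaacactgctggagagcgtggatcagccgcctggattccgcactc
Abca1, chr4:53159846-53160145, minus strand: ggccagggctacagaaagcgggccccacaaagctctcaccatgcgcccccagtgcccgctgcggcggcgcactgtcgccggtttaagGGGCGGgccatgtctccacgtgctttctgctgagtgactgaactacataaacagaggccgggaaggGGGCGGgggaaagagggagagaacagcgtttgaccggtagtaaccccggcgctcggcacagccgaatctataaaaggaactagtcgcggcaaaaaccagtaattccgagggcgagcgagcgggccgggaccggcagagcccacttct

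The table held promoters for 27 of the 35 genes, 35 promoters in all, and none was listed for Abcg1, Fdft1, Fdps, Npc1, Scd1, Scd2, Sqle and Stard4. The SRE-like letters occurred in 1 of the 35 promoters (2.86%) and in 1.24% of all 32851 promoters. That promoter is the Hmgcs1 promoter above, with the letters TCACCCCAC on the gene's own strand at position -137 from the start. The looser letters occurred in 2 of 35 promoters (5.71%), with the Nsdhl promoter (TCACCCAAC, position -205) as the other, and in 2.7% of all promoters. The looser letters free only 1 further position. Letters that differ from TCACNCCAC elsewhere, as in the Srebf2 and Hsd17b7 promoters, were not counted. With 1 and 2 matching promoters these shares are too few to compare. CCAAT boxes were found in 23 of the 35 promoters (65.71%), against 37.41% of all promoters. GC boxes were found in 27 (77.14%), against 35.66%. In the 18 promoters of sterol enzymes these shares were 77.78% for the CCAAT box and 83.33% for the GC box. The set of all promoters was not limited to genes that passed the expression filter, while all 35 genes passed it. Genes with several listed promoters, such as Dhcr7, Insig2 and Srebf1, were counted once per promoter. Whether the shares for either box differ from those of other expressed genes was not tested. The Idi1 promoter above holds 2 CCAAT boxes and 1 GC box, and the Abca1 promoter holds 2 GC boxes and no CCAAT box. A repeat of AGGTCA with any 4 bases between (DR4) was also searched for. It was found in 0 of the 35 promoters and in 5 of all 32851 (0.02%). Only these exact letters were counted, so the search does not say whether a variant of the repeat lies in the Abca1 promoter or another. Dhcr7 has 3 listed promoters, and the printed one is the only one with CCAAT boxes. A match is a match of letters and not a shown binding site.

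Per length, the desaturase gene Scd2 was the most abundant transcript of the set in every library, at 411, 361, 461 and 325 FPKM in IL-17A Il17rc KO, IL-17A Il17rd KO, IL-17A WT and untreated WT. Idi1 and Hmgcs1 followed in IL-17A WT, at 172 and 160 FPKM. In untreated WT, Hmgcs1 stood at 111 FPKM and the regulator Srebf2 at 97.8 FPKM, both above Idi1 at 65.6 FPKM. The transcripts lowest per length were Abca1, Tm7sf2 and Abcg1, in varying order, in all libraries but IL-17A WT. In IL-17A WT, Mylip at 6.55 FPKM lay below Tm7sf2 at 7.57 FPKM. Abca1 was at 2.29, 3.46, 1.01 and 6.18 FPKM in the 4 libraries, and in untreated WT Tm7sf2 was lower, at 3.69 FPKM. In IL-17A Il17rd KO, Tm7sf2 at 3.54 FPKM and Abca1 at 3.46 FPKM were nearly level. The sterol exporters were thus at the low end of the set and a lipogenic enzyme at the high end.

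**Figure D1:**
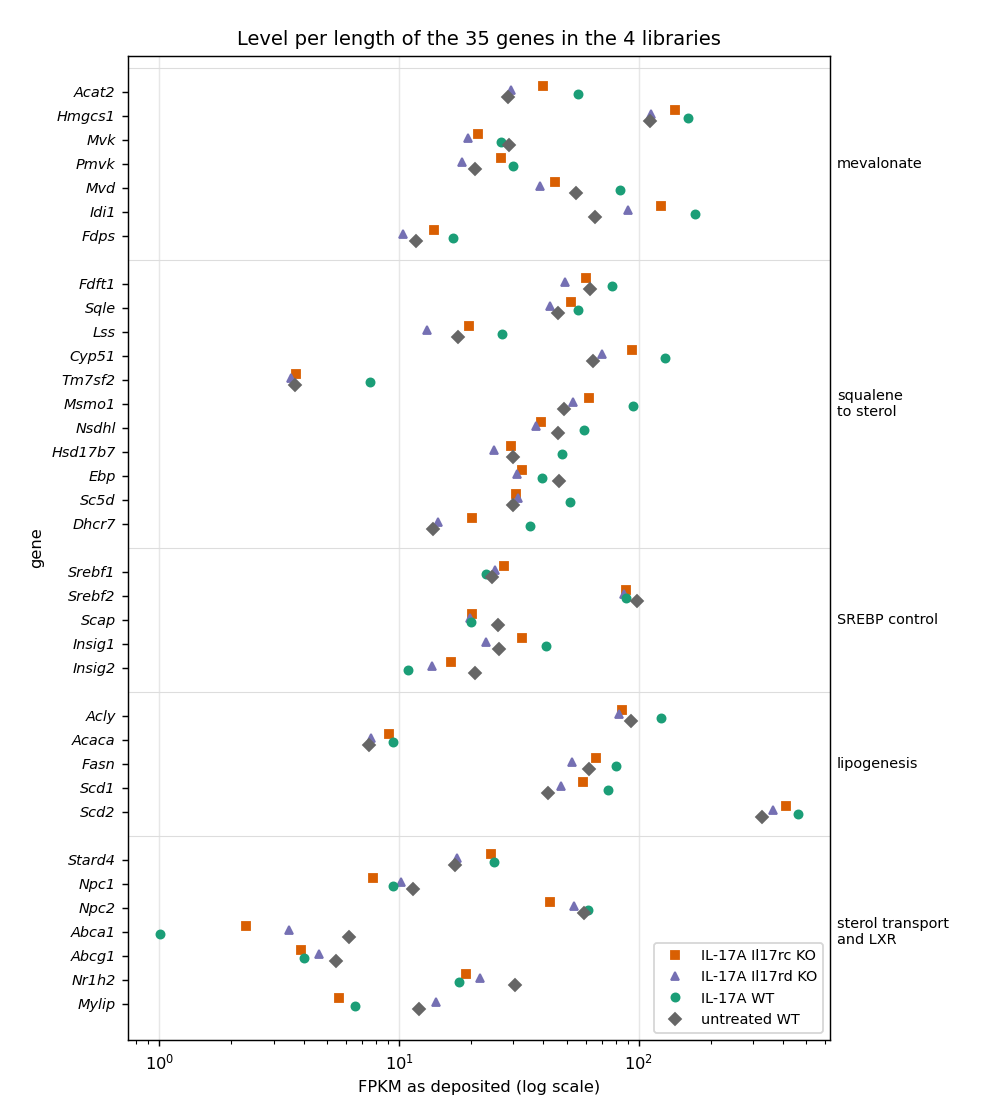
Level per length of the 35 genes (FPKM as deposited, log axis) in the 4 libraries, 1 point per library, grouped by role. Scd2 stands apart at 325 to 461 FPKM, and Abca1 spans the widest range, from 1.01 FPKM in IL-17A WT to 6.18 FPKM in untreated WT.

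The IL-17A WT library had the highest level of the 4 for 24 of the 35 genes (68.6%), while it was highest for 26.0% of all 12934 genes. Among the 18 sterol enzymes it was highest for 16, and the exceptions were Mvk and Ebp, which were highest in untreated WT. All 5 lipogenic enzymes were highest in IL-17A WT as well. The Il17rd KO library was the lowest of the 4 for 16 of the 35 genes (45.7%), while it was lowest for 12.7% of all genes. Untreated WT was lowest for 11 genes (31.4%, against 35.7% of all genes), and Il17rc KO and IL-17A WT for 4 genes each (11.4%, against 21.6% and 30.0% of all genes). Untreated WT was highest for 9 genes (25.7%, against 35.2% of all genes), the Il17rc KO library for 1 gene, Srebf1 (2.86%, against 26.7%), and the Il17rd KO library for 1 gene, Mylip (2.86%, against 12.1%).

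**Figure D2:**
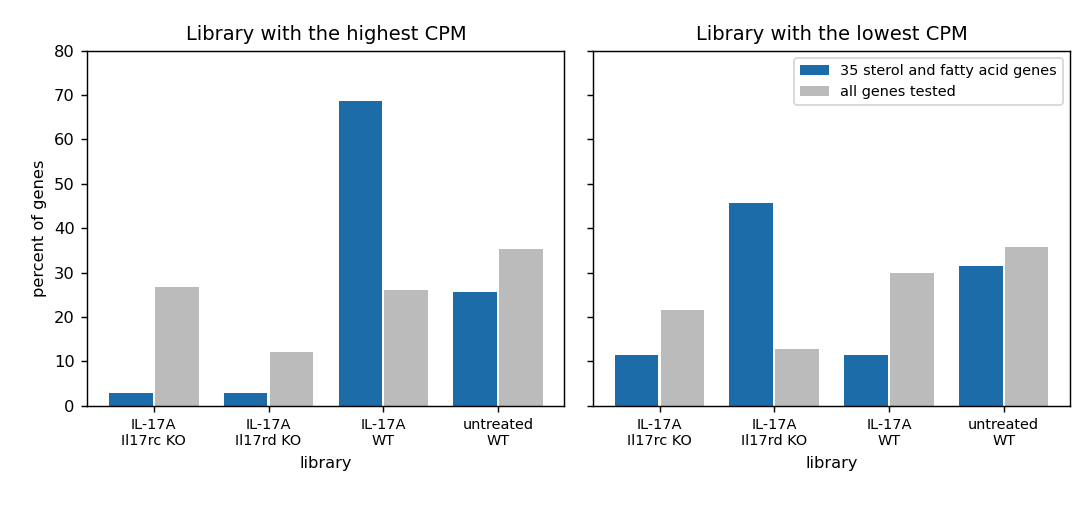
Share of genes whose level (CPM) is highest, left, or lowest, right, in each library, for the 35 genes and for all 12934 genes; bars start at 0. IL-17A WT is highest for 68.6% of the 35 genes and for 26.0% of all genes, and IL-17A Il17rd KO is lowest for 45.7% and 12.7%.

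Summed over the 18 sterol enzymes, the level was 3610 CPM in IL-17A Il17rc KO, 2890 CPM in IL-17A Il17rd KO, 4900 CPM in IL-17A WT and 3000 CPM in untreated WT. The Il17rd KO library thus had a sum close to that of untreated WT, and the Il17rc KO library lay between untreated WT and IL-17A WT. The 5 lipogenic enzymes summed to 3860, 3350, 4580 and 3280 CPM in the same libraries, again with IL-17A WT highest and Il17rc KO next. Most of each sum was Scd2, at 2240, 1970, 2520 and 1780 CPM. Of the 5, only Acly did not have Il17rc KO next, at 451 CPM there and 490 CPM in untreated WT. The 5 genes of SREBP control summed to 903, 843, 887 and 972 CPM, and the 7 transport and LXR genes to 572, 673, 681 and 769 CPM. These sums had another order, with untreated WT highest.

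WT keratinocytes with IL-17A were compared with untreated WT keratinocytes. Sterol enzyme transcripts were mostly more abundant with IL-17A, the exporter Abca1 was lower, and the SREBP genes themselves differed little. By the 2-fold rule 3 of the 35 genes were higher (Idi1, Dhcr7 and Tm7sf2; 8.57%, against 8.69% of all genes) and 1 was lower (Abca1; 2.86%, against 10.5% of all genes). The share called higher was close to that of all genes. Most of the smaller differences lay in one direction: 23 of the 35 genes had a ratio whose counting interval lay above 1 (36.3% of all genes did) and 10 had one below 1 (36.4% of all genes), a count added after the data had been seen. The median log2 ratio of the 35 genes was 0.43, and that of all genes was 0.00.

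Idi1, the isomerase of the building blocks of farnesyl diphosphate (chr13:8885501-8892451, plus strand, GRCm38), had 8710 and 6502 counts in the Il17rc KO and Il17rd KO libraries, 11804 in IL-17A WT and 4414 in untreated WT. It was 2.62-fold higher (2.53 to 2.71) in IL-17A WT than untreated WT. Both knockout libraries lay between these WT libraries. Dhcr7, a terminal reductase of cholesterol synthesis (chr7:143823145-143848410, plus strand), had 2351, 1747, 4007 and 1538 counts and was 2.55-fold higher (2.41 to 2.71) in IL-17A WT than untreated WT. Tm7sf2, a sterol reductase (chr19:6062821-6068373, minus strand), had 259, 254, 517 and 247 counts and was 2.05-fold higher (1.76 to 2.40). For Tm7sf2, the knockout and untreated libraries were level and only IL-17A WT stood apart. Tm7sf2 shares 532 exon bases, 12.08% of its exons, with Vps51 on the same strand, and Vps51 had 524, 613, 535 and 724 counts.

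Just below the 2-fold line were the lanosterol demethylase gene Cyp51 at 1.98-fold (1.92 to 2.05), the thiolase gene Acat2 at 1.95-fold (1.83 to 2.08) and the methylsterol oxidase gene Msmo1 at 1.94-fold (1.88 to 2.0), none of them called. With upper quartile scaling all 3 passed the line, and 7 genes were called in place of 4. Acat2 has a near-identical copy, Acat3, not analysed here, with 97.7% identity over 65.6% of its transcript, so its count is uncertain. Nsdhl, a sterol dehydrogenase (chrX:72918557-72958514, plus strand), had 2238, 2184, 3290 and 2518 counts and a ratio of 1.28 (1.21 to 1.35). The other sterol enzymes had log2 ratios from -0.23 (Ebp, a sterol isomerase) to 0.79 (Sc5d, a sterol desaturase). Over the 18 sterol enzymes the median log2 ratio was 0.61, and 16 had an interval above 1. The mevalonate enzymes and the enzymes from squalene onward had similar medians, 0.53 and 0.68.

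Enzymes often taken as controlling steps were not called. Hmgcs1, the synthase that starts the mevalonate pathway (chr13:119690379-119708260, plus strand), had 13125, 10605, 14393 and 9805 counts and a ratio of 1.44 (1.40 to 1.48). Sqle, squalene epoxidase (chr15:59315077-59331192, plus strand), had 5831, 4867, 6066 and 4914 counts and a ratio of 1.21 (1.16 to 1.26). Of the 18 sterol enzymes, Sqle had the smallest ratio above 1, while Idi1 had the largest.

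In lipogenesis none of the 5 enzymes was called, and all 5 had intervals above 1, with a median log2 ratio of 0.43. Fasn, fatty acid synthase (chr11:120805846-120824547, minus strand), had 14572, 11885, 17187 and 13078 counts and a ratio of 1.29 (1.26 to 1.32). Scd1, a desaturase that makes monounsaturated fatty acids (chr19:44394455-44407879, minus strand), had 5688, 4713, 7036 and 3888 counts and a ratio of 1.77 (1.70 to 1.84). Its neighbour and paralog Scd2 (chr19:44293674-44306864, plus strand) had 45014, 40546, 49264 and 34043 counts and a ratio of 1.42 (1.40 to 1.44). The transcripts of both desaturases were alike at 86.8% over 1261 aligned bases. The count of Scd1 was 0.126, 0.116, 0.143 and 0.114 times that of Scd2, so Scd2 was the main desaturase transcript in every library. Acly, ATP citrate lyase, and Acaca, acetyl-CoA carboxylase, had ratios of 1.34 (1.31 to 1.38) and 1.26 (1.2 to 1.33), and 64.3% of the Acaca transcript is matched by a processed pseudogene.

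Among the SREBP control genes, Srebf2 and Srebf1 were nearly level, the escort gene Scap was somewhat lower, and the INSIG genes went opposite ways. Srebf2 had 8842, 8933, 8667 and 9369 counts, with a ratio of 0.906 (0.880 to 0.933) in IL-17A WT over untreated WT. Srebf1 had 3086, 2899, 2541 and 2641 counts, with a ratio of 0.942 (0.892 to 0.996). Scap had 3012, 3029, 2921 and 3695 counts, with a ratio of 0.774 (0.737 to 0.813). Transcript levels of the SREBP genes say nothing of the processed proteins. Insig1, a textbook SREBP target (chr5:28071363-28078662, plus strand), had 2020, 1467, 2483 and 1551 counts and a ratio of 1.57 (1.47 to 1.67). Insig2 (chr1:121304353-121332589, minus strand) had 1148, 980, 745 and 1379 counts and was at 0.529 (0.483 to 0.579) of untreated WT, short of the 2-fold line. Counts of Insig1 over Insig2 were 1.76 (1.64 to 1.89) in IL-17A Il17rc KO, 1.5 (1.38 to 1.62) in IL-17A Il17rd KO, 3.33 (3.07 to 3.62) in IL-17A WT and 1.12 (1.05 to 1.21) in untreated WT. This ratio within a library does not depend on the scaling, and IL-17A WT had the highest of the 4.

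Abca1 (chr4:53030787-53159895, minus strand), which exports cholesterol to lipoproteins and is a textbook LXR target, had the widest spread of the set. It had 477 counts in IL-17A Il17rc KO, 737 in IL-17A Il17rd KO, 205 in IL-17A WT and 1230 in untreated WT. It was 6.13-fold lower (5.28 to 7.14) in IL-17A WT than untreated WT. Both knockout libraries lay between these WT libraries, nearer to untreated WT in Il17rd KO than in Il17rc KO. Other genes on the LXR side were also below 1 but not called: Nr1h2, which encodes LXR beta, at 0.582 (0.541 to 0.627), Mylip at 0.541 (0.478 to 0.610) and the exporter gene Abcg1 at 0.735 (0.634 to 0.851). The lysosomal sterol transport genes Npc1 and Npc2 were at 0.824 (0.776 to 0.876) and 1.03 (0.998 to 1.07), and the sterol carrier gene Stard4 was at 1.45 (1.37 to 1.54).

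**Figure D3:**
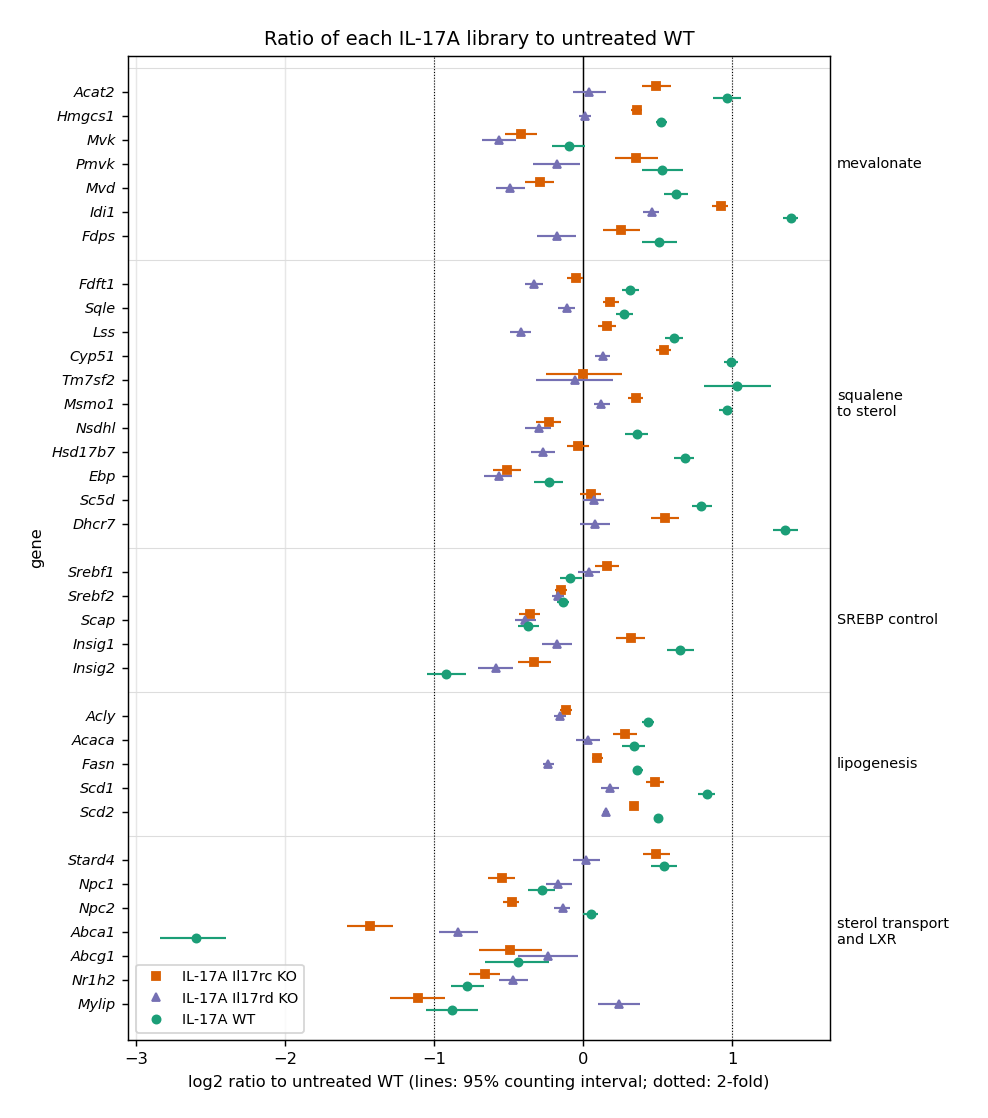
Log2 ratio to untreated WT of the 35 genes in the 3 libraries with IL-17A, with 95% counting intervals as lines and the 2-fold lines dotted. In IL-17A WT the ratio reaches 1.39 for Idi1 and -2.60 for Abca1, and the points of the Il17rd KO library lie between -0.84 and 0.46.

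Il17rc KO keratinocytes were then compared with WT keratinocytes, both with IL-17A. All 18 sterol enzymes were less abundant in the Il17rc KO library, mostly by less than 2-fold. By the 2-fold rule 1 of the 35 genes was lower (Tm7sf2; 2.86%, against 4.68% of all genes) and 1 was higher (Abca1; 2.86%, against 6.02% of all genes). These shares do not exceed those of all genes. Tm7sf2 was 2.05-fold lower (1.76 to 2.38), and scaling to library totals took it to a log2 ratio of -0.99 and out of the calls. Abca1 was 2.27-fold higher (1.92 to 2.69). Of the 35 genes, 26 had an interval below 1 (26.7% of all genes) and 4 had one above 1 (34.0% of all genes). Median log2 ratios were -0.28 for the 35 genes, -0.46 for the 18 sterol enzymes and 0.04 for all genes.

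Within the pathway the Il17rc KO library was furthest below IL-17A WT at Tm7sf2 and at the decarboxylase gene Mvd, which had 1664, 1485, 3051 and 1946 counts. Mvd was 1.88-fold lower (1.77 to 2.0) in Il17rc KO, without being called. Dhcr7 was 1.75-fold lower (1.66 to 1.84), Sc5d 1.67-fold lower (1.6 to 1.75) and the reductase gene Hsd17b7 1.64-fold lower (1.57 to 1.72), none of them called. Sqle was nearly level at 0.938 (0.905 to 0.973), as were Hmgcs1 at 0.890 (0.869 to 0.911) and the kinase gene Pmvk at 0.883 (0.807 to 0.967). The median log2 ratio was -0.59 for the 11 enzymes from squalene onward and -0.32 for the 7 before, a difference between the steps that was not tested. Acaca at 0.962 (0.915 to 1.01), Stard4 at 0.965 (0.915 to 1.02) and Abcg1 at 0.970 (0.828 to 1.14) did not differ beyond counting error. Scap and Srebf2 did not differ beyond counting error, at 1.01 (0.956 to 1.06) and 0.996 (0.966 to 1.03), and the sign of both changes with the scaling.

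In Il17rd KO keratinocytes with IL-17A, all 18 sterol enzymes were again below WT keratinocytes with IL-17A, and all but Sc5d had a lower level than in Il17rc KO. By the 2-fold rule 4 of the 35 genes were lower (Mvd, Lss, Tm7sf2 and Dhcr7; 11.4%, against 3.6% of all genes) and 2 were higher (Abca1 and Mylip; 5.71%, against 6.04% of all genes). The lower ones are all enzymes of sterol synthesis. Dhcr7 was 2.41-fold lower (2.28 to 2.55), Mvd 2.16-fold lower (2.03 to 2.30) and Tm7sf2 2.14-fold lower (1.83 to 2.49). Lss, lanosterol synthase, which closes the sterol rings (chr10:76531588-76557138, plus strand), had 4255, 2912, 5670 and 3641 counts and was 2.04-fold lower (1.95 to 2.14), a call that scaling to library totals ended, at a log2 ratio of -0.95. Of the 35 genes, 26 had an interval below 1 (28.1% of all genes) and 6 had one above 1 (30.2% of all genes). Median log2 ratios were -0.59 for the 35 genes, -0.78 for the sterol enzymes and 0.01 for all genes.

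Close to the line but not called were Hsd17b7 at 1.93-fold lower (1.84 to 2.02), Idi1 at 1.91-fold lower (1.85 to 1.96) and Acat2 at 1.90-fold lower (1.78 to 2.02). The enzymes nearest to level were Ebp at 0.789 (0.736 to 0.846) and Sqle at 0.765 (0.736 to 0.794). In lipogenesis the median log2 ratio was -0.59, with Scd1 at 0.638 (0.615 to 0.662), Fasn at 0.659 (0.644 to 0.675) and Scd2 at 0.784 (0.774 to 0.795). Insig1 was 1.78-fold lower (1.66 to 1.90) and Insig2 had a ratio of 1.25 (1.14 to 1.38), neither called. Opposite to the enzymes, Abca1 was 3.43-fold higher (2.93 to 4.02). Mylip, which encodes a ubiquitin ligase for lipoprotein receptors (chr13:45389742-45412022, plus strand), had 363, 954, 415 and 752 counts and was 2.19-fold higher (1.95 to 2.46) in Il17rd KO than in IL-17A WT. Its counts in the Il17rd KO and untreated WT libraries were well above those in the other libraries. The 3 comparisons above share the IL-17A WT library, so a high or low count in that library enters all of them.

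**Figure D4:**
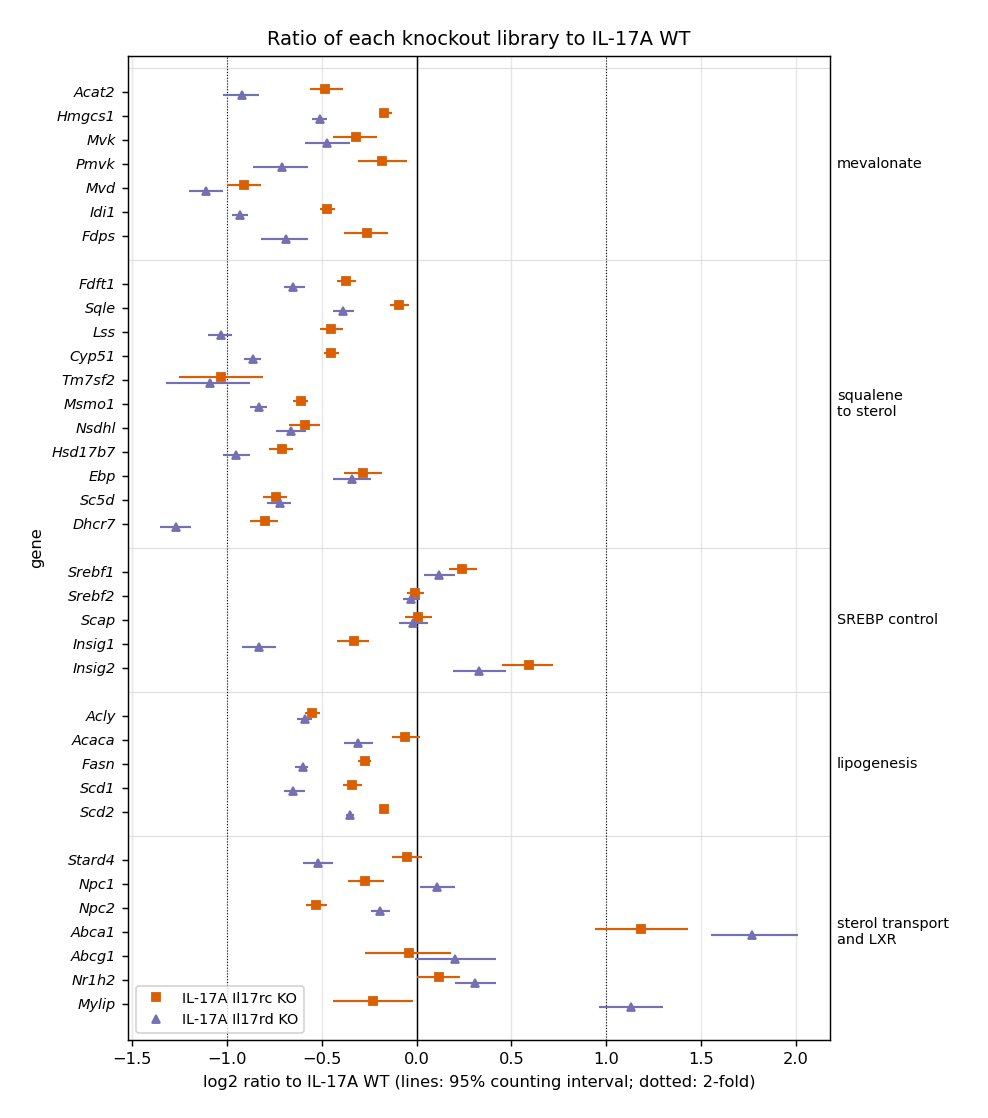
Log2 ratio to IL-17A WT of the 35 genes in both knockout libraries, with 95% counting intervals as lines and the 2-fold lines dotted. All 18 sterol enzymes lie left of 0 in both, down to -1.03 in the Il17rc KO library and -1.27 in the Il17rd KO library, while Abca1 lies at 1.18 and 1.77.

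The knockout libraries were also set against each other. Only Mylip was called, 2.57-fold lower (2.27 to 2.90) in Il17rc KO than in Il17rd KO, and no gene was called higher; among all genes 2.51% were lower and 1.41% higher. Of the 18 sterol enzymes, 14 had an interval above 1 in Il17rc KO over Il17rd KO, and the median log2 ratio was 0.29. The largest was Lss at 1.5 (1.43 to 1.57), followed by Pmvk at 1.45 (1.31 to 1.6) and Dhcr7 at 1.38 (1.30 to 1.47). Sc5d at 0.987 (0.938 to 1.04), Ebp at 1.04 (0.971 to 1.12), Nsdhl at 1.05 (0.989 to 1.11) and Tm7sf2 at 1.04 (0.875 to 1.25) did not differ beyond counting error. Abca1 was at 0.663 (0.590 to 0.745) and the lysosomal genes Npc1 and Npc2 at 0.769 (0.721 to 0.819) and 0.791 (0.762 to 0.823), on the other side of 1 from most of the enzymes. Of the 35 genes, 22 had an interval above 1 (28.4% of all genes) and 6 had one below 1 (23.1% of all genes).

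Set against untreated WT, the knockout libraries held few calls. In Il17rc KO, Abca1 was 2.70-fold lower (2.42 to 3.0) and Mylip 2.17-fold lower (1.91 to 2.46), the 2 genes called lower (5.71%, against 6.73% of all genes), and none was higher (7.09% of all genes). In Il17rd KO none of the 35 genes was called, while 5.12% of all genes were higher and 3.19% lower. Intervals lay above 1 for 17 and below 1 for 14 of the 35 genes in Il17rc KO (35.2% and 35.6% of all genes), and above 1 for 6 and below 1 for 21 in Il17rd KO (30.8% and 32.4% of all genes). The median log2 ratios were 0.05 in Il17rc KO and -0.17 in Il17rd KO. Scaled to library totals, the median of all genes in Il17rd KO over untreated WT moves to 0.11 and that of the 35 genes to -0.05. Idi1 was the sterol enzyme furthest above untreated WT in both, at 1.89 (1.82 to 1.96) in Il17rc KO and 1.37 (1.32 to 1.43) in Il17rd KO. Ebp and Mvk were the sterol enzymes furthest below, at 0.701 (0.656 to 0.750) and 0.746 (0.690 to 0.807) in Il17rc KO and at 0.672 (0.628 to 0.718) and 0.674 (0.622 to 0.730) in Il17rd KO.

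Other cell states moved with the same libraries. Markers of differentiated keratinocytes, all 15 of 15 measured, summed to 2910 CPM in IL-17A Il17rc KO, 3340 CPM in IL-17A Il17rd KO, 752 CPM in IL-17A WT and 7040 CPM in untreated WT, and 13 of them were lower in IL-17A WT than untreated WT (against 10.5% of all genes). Compared with IL-17A WT, 12 of the 15 were higher in each knockout library (against 6.02% of all genes in Il17rc KO and 6.04% in Il17rd KO). Cell cycle genes, 20 of 20 measured, summed to 3260, 1920, 1880 and 684 CPM. Of these, 19 were higher in IL-17A WT than untreated WT (against 8.69% of all genes). Compared with IL-17A WT, 7 were higher in Il17rc KO (against 6.02% of all genes) and 1 was lower in Il17rd KO (against 3.6% of all genes). Both lists thus set untreated WT apart from the IL-17A libraries, and the differentiation list also set IL-17A WT apart from the knockouts. Their part in the sterol and lipid gene differences was not tested.

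Fibroblast markers, 12 of 16 measured, summed to 387, 515, 514 and 490 CPM. Most of the sum in IL-17A WT was Sparc, Vim and Fbln1, at 259, 181 and 64.0 CPM. The sum thus hides the other markers: the list's median log2 ratio in IL-17A WT over untreated WT was -2.55, with 9 genes below 0 and 3 above. By the 2-fold rule 9 of the 12 were lower in IL-17A WT than untreated WT (75.0%). In Il17rc KO and Il17rd KO, 7 and 8 were higher than in IL-17A WT (58.3% and 66.7%). These shares are well above those of all genes just given. Melanocyte markers, 9 of 9 measured, summed to 2140, 2310, 1670 and 2520 CPM. Of these, 1 was lower in IL-17A WT than untreated WT (11.1%, against 10.5% of all genes). Another count of 1 was higher in Il17rc KO than in IL-17A WT (11.1%, against 6.02% of all genes). Immune cell markers, 5 of 12 measured, summed to 7.18, 24.1, 24.8 and 55.1 CPM, with 4 lower in IL-17A WT than untreated WT. Compared with IL-17A WT, 3 of the 5 were lower and 1 higher in Il17rc KO, and 2 were higher in Il17rd KO. Basal keratinocyte markers, 12 of 12 measured, summed to 37800, 42500, 42600 and 48000 CPM, with 1 higher and 2 lower in IL-17A WT over untreated WT, and the same counts in each knockout library over IL-17A WT. These are 8.33% higher and 16.7% lower each time. All genes had 8.69% and 10.5% in IL-17A WT over untreated WT, 6.02% and 4.68% in Il17rc KO, and 6.04% and 3.6% in Il17rd KO over IL-17A WT. Markers of sebaceous and adipose cells, which make much lipid, were represented by 4 of 14 genes with sums of 32.0, 39.4, 21.3 and 52.4 CPM, 2 of them lower in IL-17A WT than untreated WT. Compared with IL-17A WT, 2 of the 4 were higher in each knockout library and 1 was lower in Il17rd KO. No measured marker of these lists was at 0 in any library, but few of the 13102 deposited genes were: 1, 4, 6 and 3 in the 4 libraries. The markers not measured are absent from the deposited genes, and their levels are not known. The size of a marker sum does not give how much RNA of the 35 genes such cells supply. The part of these cells was not tested either, nor was that of the sex-linked difference, although Nsdhl and Ebp lie on the X chromosome.

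**Figure D5:**
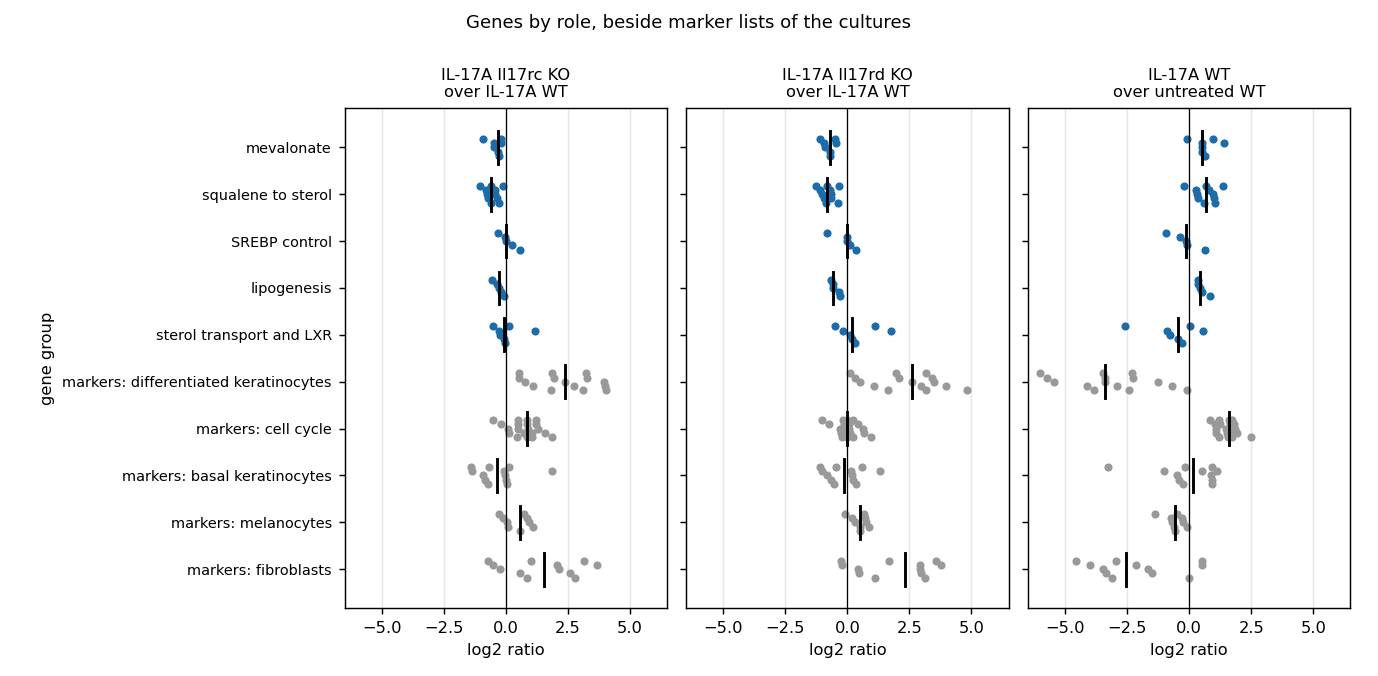
Log2 ratio of each gene (points) and median (vertical bar) by role, in blue, and for 5 marker lists, in grey, in each knockout library over IL-17A WT and in IL-17A WT over untreated WT. The medians of the enzymes from squalene to sterol are -0.59, -0.83 and 0.68, and those of the differentiated keratinocyte markers are 2.39, 2.62 and -3.38.

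Some counts may hold reads of other genes, since the strand setting of the counting was not given in the sources used here. Fdft1, squalene synthase, shares 774 exon bases, 18.31% of its exons, with Ctsb on the opposite strand, and Ctsb had 13338, 17515, 11944 and 25563 counts, far above the 5096, 4300, 6421 and 5056 counts of Fdft1. Cyp51 and Srebf1 share 3.76% and 1.93% of their exons with Akap9 and Rai1 on the opposite strand. Fdps shares 26.71% of its exons with the gene model Gm43738, and processed pseudogenes match 33.7% of Fdft1 and 22.6% of Idi1. Of these pseudogenes and of that for Insig1, 1 was in the deposited tables, Gm37784, with 21, 21, 24 and 24 counts beside the 1467 to 2483 counts of Insig1.

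Outside the set, 109 of 124 further genes of these pathways were measured and 107 passed the filter. In IL-17A WT compared with untreated WT, 8 were higher and 15 lower (7.48% and 14.0%, against 8.69% and 10.5% of all genes). In Il17rc KO compared with IL-17A WT, 4 were higher and 4 lower (3.74% of the 107 each, against 6.02% and 4.68% of all genes). In Il17rd KO compared with IL-17A WT, 9 were higher and 5 lower (8.41% and 4.67%, against 6.04% and 3.6% of all genes). These shares are near those of all genes. Their median log2 ratios were -0.13, -0.03 and 0.02 in these comparisons, beside 0.61, -0.46 and -0.78 for the sterol enzymes. Of the 16 further genes of SREBP processing and sterol sensing, none was called in IL-17A WT compared with untreated WT, and the lone call in the other comparisons was Ppargc1b, a transcriptional coactivator, 2.10-fold higher (1.53 to 2.89) in Il17rd KO than in IL-17A WT.

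Among the 28 further genes of fatty acid synthesis and activation, acyl-CoA synthetases went opposite ways. Acsl4, which prefers arachidonic acid, had 1617, 1224, 3960 and 693 counts and was 5.60-fold higher (5.16 to 6.08) in IL-17A WT than untreated WT. Compared with IL-17A WT it was 2.51-fold lower (2.37 to 2.66) in Il17rc KO and 3.40-fold lower (3.18 to 3.62) in Il17rd KO. Acsl1, which activates long-chain fatty acids, had 817, 814, 301 and 968 counts and was 3.28-fold lower (2.88 to 3.75) in IL-17A WT than untreated WT. Compared with IL-17A WT it was 2.65-fold higher (2.32 to 3.03) in Il17rc KO and 2.58-fold higher (2.25 to 2.95) in Il17rd KO. The elongase gene Elovl6 was 2.54-fold higher (2.34 to 2.76) and the thioesterase gene Acot1 4.94-fold lower (4.19 to 5.85) in IL-17A WT than untreated WT. Fads3, of the fatty acid desaturase family, was 2.09-fold lower (2.01 to 2.18) in Il17rc KO and 2.06-fold lower (1.97 to 2.14) in Il17rd KO than in IL-17A WT.

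Of the 35 further genes of sterol uptake, efflux, esters and oxysterols, 10 were called lower (28.6%, against 10.5% of all genes) and 3 higher (8.57%, against 8.69%) in IL-17A WT against untreated WT. Cyp27a1, Ch25h and Vldlr of this list took the direction of Abca1. Cyp27a1 and Ch25h, which make the LXR ligands called oxysterols, had few counts: Cyp27a1 had 103, 71, 16 and 153, and Ch25h had 60, 73, 15 and 100. Cyp27a1 was 9.76-fold lower (5.82 to 17.5) and Ch25h 6.81-fold lower (3.93 to 12.6) in IL-17A WT than untreated WT. In Il17rc KO they were 6.28-fold (3.69 to 11.4) and 3.9-fold (2.19 to 7.40) higher than in IL-17A WT, and in Il17rd KO 4.23-fold (2.43 to 7.79) and 4.64-fold (2.64 to 8.71) higher. Vldlr, a lipoprotein receptor, had 669, 638, 203 and 543 counts and was 2.73-fold lower (2.32 to 3.22) in IL-17A WT than untreated WT. It was 3.22-fold higher (2.74 to 3.78) in Il17rc KO and 2.99-fold higher (2.55 to 3.52) in Il17rd KO than in IL-17A WT. Of the 15 further genes of glycerolipid synthesis and storage, Dgat2, which completes triglyceride synthesis, was 2.73-fold lower (2.48 to 3.01) in IL-17A WT than untreated WT and 2.25-fold higher (2.04 to 2.48) in Il17rd KO than in IL-17A WT. Pnpla3, a lipid droplet enzyme, went the other way, 2.22-fold lower (1.48 to 3.39) in Il17rc KO and 2.10-fold lower (1.41 to 3.17) in Il17rd KO than in IL-17A WT. Of the 13 further genes of isoprenoid and sterol synthesis, Pdss1, which makes the side chain of ubiquinone, was 4.55-fold higher (3.07 to 6.94) in IL-17A WT than untreated WT, with 144, 80, 144 and 31 counts.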

How the data were processed

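RNA was sequenced from 4 keratinocyte cultures, 1 library per group. Per the labels' protocols, total RNA was extracted with Trizol and libraries were made by a sequencing company. The submitters' processing notes name HISAT2, Trim Galore 0.4.4, edgeR, Subread with featureCounts, and build mm10; their order and settings were not given in the sources used here. The authors deposited whole-number counts per gene, not normalized, and FPKM values, which were used for levels compared between genes. There were 17 symbols turned into dates, and they are not named.

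Counts were scaled with TMM factors (edgeR 4.0.16 in R 4.3.3), which were 1.01, 1.04, 0.984 and 0.963 in IL-17A Il17rc KO, IL-17A Il17rd KO, IL-17A WT and untreated WT, and given as CPM. Log2 ratios use a prior count of 2. Intervals are exact 95% conditional binomial (Clopper-Pearson) intervals, which cover counting error only. Calls by this rule were first tested on simulated counts with counting error only. The simulation had no spread between cultures, so it cannot say whether calls near 2-fold would hold in other cultures. The scripts ran in Python 3.11.15 with SciPy 1.17.1. Positions and overlaps come from GENCODE M21 (GRCm38). Copies are BLAST+ 2.17.0 matches of at least 95% identity over at least 50% of either transcript. Motifs were searched on both strands of the RefSeq promoters; SRE-like letters are also counted among the looser ones. The planned comparison of protein sequences was not run.

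The 35 genes and all other lists were chosen with earlier results of these data known. Given in full are genes of the set past the size rule in at least 1 of the first 3 comparisons and 11 chosen for their role, and up to 4 genes of each further list with the largest ratios past the rule. The text does not name every gene the rule selects. Lists are described by counts and medians, with no set test. Alternatives were DESeq2 1.42.0 size factors, library totals, upper quartile factors, no filter, 1.5-fold and 3-fold limits, prior counts of 0.5 and 5, FPKM in place of counts, and leaving out Scd1 and Scd2. A limit of no size and a size rule on the plain ratio were added after the data had been seen.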

Additional observations from a re-analysis of the deposited data

How the results depend on the processing

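The counts of genes called depend most on the size limit. At 1.5-fold, 16 genes were called in IL-17A WT over untreated WT in place of 4, 12 of them higher and 4 lower (17.8% and 18.8% of all genes were). In Il17rc KO over IL-17A WT 9 were called in place of 2, with 2 higher and 7 lower (12.1% and 9.71% of all genes). In Il17rd KO over IL-17A WT 20 were called in place of 6, with 2 higher and 18 lower (12.0% and 8.27% of all genes). In Il17rc KO over Il17rd KO 2 were called in place of 1, both lower (6.77% of all genes), in Il17rc KO over untreated WT 4 in place of 2, with 1 higher and 3 lower (15.4% and 15.9%), and in Il17rd KO over untreated WT 2 in place of 0, both lower (10.0%). At 3-fold the counts in the same order were 1 (lower, as 5.06% of all genes were), 0, 1 (higher, as 2.88% were), 0, 0 and 0. With no size limit they were 33, 30, 32, 28, 31 and 27, and the text above gives their directions with the shares of all genes. Upper quartile factors gave 7 in IL-17A WT over untreated WT, 6 of them higher and 1 lower, and library totals gave 1, higher, in Il17rc KO over IL-17A WT. Library totals moved the median log2 ratio of the 35 genes to -0.50 in Il17rd KO over IL-17A WT (-0.59 with TMM) and to -0.05 in Il17rd KO over untreated WT (-0.17 with TMM). Under the 3 other scalings IL-17A WT was highest for 24 of the 35 genes each time. Of the log2 ratios of single genes under an alternative, 608 moved by less than their counting interval and 22 moved by more, and none that was called changed sign. No paired analysis was possible because each group has 1 library, and leaving out a replicate was not possible for the same reason. The depth of 19711866 counts or more keeps counting error small for most of the set, while the spread between cultures is not known.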
